A study of Mus musculus with 3 samples.

Results

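The HIF pathway set described here is 10 genes, chosen by symbol from the annotation: the subunits Hif1a, Epas1 and Arnt, the oxygen sensors Egln1, Egln2 and Egln3, the ubiquitin ligase component Vhl, and the targets Vegfa, Bnip3 and Ddit4. All 10 of 10 matched an identifier, out of 55536 gene identifiers in the tables, of which 22015 are protein-coding genes of the nuclear genome. They were measured in total RNA depleted of ribosomal RNA from the cytosol of macrophages that had been grown from C57BL/6J mouse bone marrow. There was 1 group of 3 libraries, labelled biological replicates 1 to 3. The cells had received Lipid A, the membrane anchor of bacterial lipopolysaccharide, at 100 ng/ml for 12 h, then 12 h without it, then Lipid A again at 100 ng/ml for 25 min. The labels give separate biosamples with the same donor entry, and neither sex nor age, so the spread between libraries may be technical. No untreated, hypoxic or nuclear library was analysed here, so the values are levels in restimulated cells and not responses to Lipid A or to oxygen.

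HIF is a transcription factor of an oxygen-regulated alpha subunit, HIF-1 alpha from Hif1a or HIF-2 alpha from Epas1, joined to the constant partner ARNT. In the presence of oxygen the EGLN prolyl hydroxylases modify prolines of the alpha subunit, VHL binds the modified protein, and the ligase marks it for the proteasome. In macrophages lipopolysaccharide is known to raise Hif1a through NF-kB, and HIF-1 alpha is known for driving glycolysis and Il1b. Much of this control acts on the protein, which was not measured.

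The libraries held 55517261, 21311556 and 45635014 expected counts in replicates 1, 2 and 3. A floor of 3 counts, which covers counting error only, corresponds to a CPM (counts scaled to 1000000 per library) of 0.0540, 0.141 and 0.0657. Nuclear protein-coding genes held 29.6%, 40.4% and 34.8% of the length-corrected transcript share (TPM), so a uniform shift of TPM between libraries can follow that share. Differences between libraries are therefore given as protein-coding CPM, counts scaled so that nuclear protein-coding genes sum to 1000000. Replicate 1 was highest in 2 nuclear noncoding RNAs, with Malat1 at 8329, 3480 and 1444 and Neat1 at 924, 212 and 152 protein-coding CPM. Malat1 also fell from replicate 2 to replicate 3. A gene is called expressed below where each of the 3 libraries gave 1 TPM or more. Of the macrophage markers 7 of 7 were expressed, at a median of 231 TPM. Of 22 markers of endothelial, T, B, neutrophil, stromal and erythroid cells, 2 were expressed, Kdr and Vwf.

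Of the 10 members 7 were expressed: Hif1a, Arnt, Egln1, Egln2, Vhl, Vegfa and Bnip3. Of all 22015 nuclear protein-coding genes, 9275 were, which is 42.1%. The median of the mean levels was 5.86 TPM over all 10 members and 0.197 TPM over all those protein-coding genes. Epas1, Egln3 and Ddit4 were below 1 TPM in at least 1 library. In bulk RNA a low level can be fewer cells with the transcript or less of it per cell, and these cannot be told apart.

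**Figure D1:**
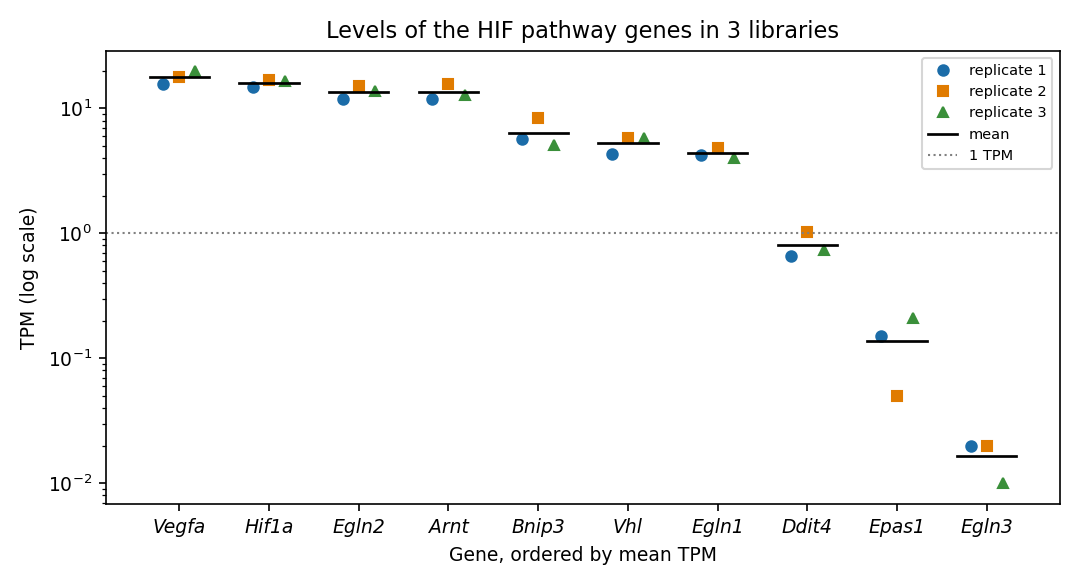
TPM on a log axis of each of the 10 genes in replicates 1 to 3 (points), with the mean over the 3 libraries (black line), ordered by mean. The means run from 17.8 TPM for Vegfa to 0.0167 TPM for Egln3, with 7 genes wholly above the dotted line of 1 TPM.

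Hif1a (ENSMUSG00000021109.13, mm10 chromosome 12, 73901375 to 73947530, plus strand) encodes the alpha subunit of HIF-1. It was at 14.75, 16.91 and 16.54 TPM in replicates 1, 2 and 3 (16.1 ± 1.16, SD, n = 3), from 5584, 1968 and 4722 expected counts. The 3 libraries lay close together, with replicate 1 lowest in TPM and replicate 2 lowest in protein-coding CPM (116, 101 and 116). Its mean was above that of 64.4% of the 9275 expressed protein-coding genes. The antisense gene Gm15283 overlaps it and had 10.03, 0 and 7.05 expected counts, and the overlapping Gm49321 had 0 in each library. Whether the counting used the strand is not given in the sources used.

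Epas1 (ENSMUSG00000024140.10, chromosome 17, 86753700 to 86833410, plus strand), the HIF-2 alpha gene, was at 0.15, 0.05 and 0.21 TPM (0.137 ± 0.0808, SD, n = 3). It had 74, 7 and 48 expected counts. Replicate 2 was lowest at 0.358 protein-coding CPM (95% Poisson interval 0.144 to 0.737, counting error only), and this interval lies below those of replicate 1 (1.21 to 1.94) and replicate 3 (0.873 to 1.57). Of the 0.21 TPM in replicate 3, 0.07 was assigned to a noncoding transcript of 2 exons. The upper credibility bounds of the authors' deposited TPM reached 0.516, 1.08 and 0.720, so the level is known only to within a wide range.

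Arnt (ENSMUSG00000015522.18, chromosome 3, 95434388 to 95497240, plus strand) encodes the partner that both alpha subunits need. It was at 11.84, 15.65 and 12.78 TPM (13.4 ± 1.98, SD, n = 3), from 3684, 1575 and 2977 expected counts. Replicate 2 was highest in TPM, but on the protein-coding CPM scale the libraries were nearly level at 76.9, 80.5 and 73.4. The pseudogene Gm42672 lies within Arnt and had 16, 0 and 2 counts.

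Hif1a exceeded Epas1 in 3 of 3 libraries, by 6.15 ± 0.59 (SD, n = 3) on the log2((TPM + 0.1)/(TPM + 0.1)) scale, or 71.2-fold. From the summed counts, 12274 against 129, divided by effective length, the ratio was 104 (95% exact interval 87.4 to 125, counting error only). In the read-based tables Epas1 had 145, 20.0 and 61.2 counts and Hif1a 6071, 2330 and 5130. The interval does not cover this difference between quantifications, nor the spread of Epas1 between libraries. Hif1a exceeded Arnt in 3 of 3 libraries by 0.27 ± 0.14, or 1.20-fold. With 3 libraries the exact two-sided sign-flip test cannot go below p = 0.25. All 5 ratios tested within families gave that smallest value, and p = 0.25 after Benjamini-Hochberg adjustment over the 5, so the exact test set no ratio apart. The other subunit genes of the pathway list, Hif3a at 0.0800 TPM and Arnt2 at 0.0433 TPM, were also low, so 2 of 5 subunit genes were expressed.

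The stretches that the oxygen sensors act on were read from the transcripts and are shown because they link the sensors to the subunits. Each carries codons for a leucine-X-X-leucine-alanine-proline motif, in capitals, whose last codon is the proline. The transcript Hif1a-201 held 2 such motifs, with the prolines at codons 402 and 577 of 836, and the coding transcript of Epas1 held 2, with the prolines at codons 405 and 530 of 874.
Hif1a-201 site 1: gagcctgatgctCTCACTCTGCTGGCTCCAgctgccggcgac
Hif1a-201 site 2: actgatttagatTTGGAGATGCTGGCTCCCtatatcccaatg
Epas1 site 1: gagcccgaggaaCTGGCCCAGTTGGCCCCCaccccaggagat
Epas1 site 2: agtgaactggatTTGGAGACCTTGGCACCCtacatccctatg
These lie at chr12:73939677-73939718, chr12:73941964-73942005, chr17:86824558-86824599 and chr17:86827501-86827542 of mm10, all on the plus strand.

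Hif1a was mostly read as 2 coding transcripts that start in different first exons. Hif1a-201 held 62.8%, 71.0% and 74.7% of the gene's TPM (69.5% ± 6.08, SD, n = 3) and Hif1a-202 held 31.6%, 27.6% and 24.0% (27.7% ± 3.80). In the read-based quantification the means were 71.7% and 21.8%, in the same order. Hif1a-202 starts upstream, at position 73901375 against 73907904, and has 810 codons against 836. It lacks the first 12 codons of Hif1a-201 and an internal segment of 14 codons. Both motif stretches above are in both transcripts, with the prolines of Hif1a-202 at codons 390 and 551.
Hif1a-201 coding start (capitals, the bases upstream of the Hif1a-202 start codon): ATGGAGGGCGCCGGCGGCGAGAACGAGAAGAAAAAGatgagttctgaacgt
Hif1a-202 coding start (capitals, the start codon): ATGagttctgaacgt
Hif1a-201 internal segment (capitals, the bases absent from Hif1a-202): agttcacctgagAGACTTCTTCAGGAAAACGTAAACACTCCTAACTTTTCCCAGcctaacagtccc
The internal segment spans 73941688 to 73941729. The alternative first exon, known from mouse immune cells and testis, gives a shorter amino end.

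Arnt was also read as 2 main transcripts. Arnt-202 held 62.5%, 82.1% and 62.5% of its TPM (69.0% ± 11.3, SD, n = 3) and Arnt-203 held 17.2%, 12.7% and 29.1% (19.7% ± 8.45). Replicate 2 was high for Arnt-202 and replicate 3 for Arnt-203. Arnt-203 differs in its coding exons by 1 more exon of 45 bases (15 codons) at 95466793 to 95466837. The read-based means were 57.6% and 30.0%.

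**Figure D2:**
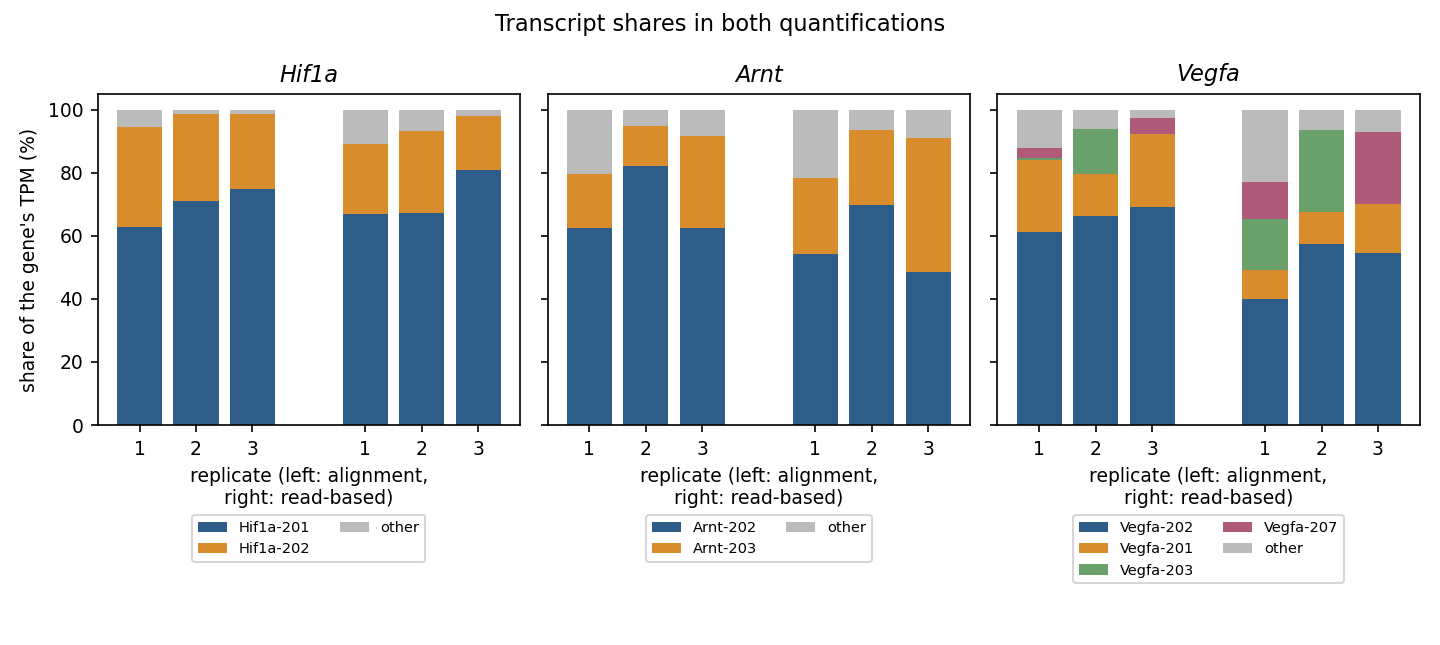
Share of each gene's TPM (%) by transcript for Hif1a, Arnt and Vegfa, in replicates 1 to 3, from the alignment-based tables (left 3 bars) and the read-based tables (right 3 bars). Hif1a-201, Arnt-202 and Vegfa-202 lead in every bar, and the minor Vegfa transcripts differ between libraries and quantifications.

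Among the oxygen sensors Egln2 was the highest transcript. Egln2 (ENSMUSG00000058709.11, chromosome 7, 27158658 to 27166802, minus strand), the PHD1 gene, was at 11.83, 15.03 and 13.86 TPM (13.6 ± 1.62, SD, n = 3). Egln1 (ENSMUSG00000031987.6, chromosome 8, 124908587 to 124949324, minus strand), which encodes PHD2, the main HIF prolyl hydroxylase in most cells at normal oxygen, was at 4.27, 4.78 and 4.04 TPM (4.36 ± 0.379). Every library of Egln2 lay above every library of Egln1, and the log2 ratio of Egln1 to Egln2 was -1.61 ± 0.15, so Egln2 was 3.06-fold higher. In protein-coding CPM, which is not length-corrected, Egln1 was at 27.2, 22.0 and 21.9, highest in replicate 1. Egln2 shares 11 bases of its end with Cyp2t4 on the opposite strand, which had 3, 2 and 1 counts.

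Egln3 (ENSMUSG00000035105.5, chromosome 12, 54178981 to 54203860, minus strand), the PHD3 gene and in many cells itself a HIF target, had 5, 1 and 2 counts, or 0.02, 0.02 and 0.01 TPM. This is near the floor of 3 counts in each library. Summed over the libraries, 2623 counts of Egln1 against 8 of Egln3 gave a ratio per effective length of 237 (95% exact interval 120 to 550, counting error only). With the pseudocount the log2 ratio was 5.26 ± 0.08, which the pseudocount holds down. Of the list of 5 oxygen sensors, 3 were expressed, the third being Hif1an at 4.58 ± 0.716 TPM, the asparaginyl hydroxylase that blocks coactivator binding, while P4htm was at 0.230 TPM.

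Vhl (ENSMUSG00000033933.13, chromosome 6, 113623959 to 113631633, plus strand) encodes the part of the ligase that recognises hydroxylated HIF. It was at 4.33, 5.83 and 5.82 TPM (5.33 ± 0.863, SD, n = 3), from 972, 400 and 979 counts, with replicate 1 lowest in TPM. In protein-coding CPM Vhl was at 20.3, 20.4 and 24.1, with replicates 1 and 2 nearly level and replicate 3 highest. Vhl-201 held 98.8% ± 2.00 of its TPM. It was the lowest in mean TPM of the 5 ligase genes, all of which were expressed: Elob was at 114 ± 19.5, Rbx1 at 54.7 ± 7.31, Eloc at 41.6 ± 13.8 and Cul2 at 8.54 ± 1.39 TPM. Those 4 subunits also serve other ligases. Of the HIF cofactors and regulators, 10 of 10 were expressed, led by Hsp90ab1 (263 ± 47.2 TPM), a chaperone of HIF alpha, and Rack1 (91.6 ± 9.29), which binds HIF alpha and promotes its loss. The lectin gene Os9 (58.6 ± 9.98) and Cited2 (37.0 ± 9.53), which competes with HIF alpha for the coactivators, came next.

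Vegfa (ENSMUSG00000023951.17, chromosome 17, 46016993 to 46032369, minus strand), the angiogenic growth factor and a classical HIF target, had the highest mean of the 10 genes. It was at 15.73, 17.85 and 19.81 TPM (17.8 ± 2.04, SD, n = 3), from 3805, 1222 and 3784 counts. On the protein-coding CPM scale, replicate 2 was low (62.4) and replicate 3 high (93.3), with replicate 1 at 79.4. The highest library was 1.49-fold above the lowest, the widest ratio among the 7 expressed members.

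Vegfa transcripts differ by an upstream alternative exon of 24 codons (46022277 to 46022348) and a downstream one of 44 codons (46020991 to 46021122), which carry heparin-binding stretches and so set how far the secreted protein spreads. Vegfa-202, with the downstream exon alone, held 61.3%, 66.3% and 69.1% of the gene's TPM (65.5% ± 3.92, SD, n = 3). Vegfa-201, with neither, held 22.9%, 13.4% and 23.3% (19.9% ± 5.58). In the read-based tables the means were 50.7% and 11.6%, so Vegfa-202 led in both, but its share was lower there by more than its SD. The alternative exons and the junction without them are shown with 12 bases of the neighbouring exons, on the minus strand.
Vegfa-203 upstream alternative exon (capitals): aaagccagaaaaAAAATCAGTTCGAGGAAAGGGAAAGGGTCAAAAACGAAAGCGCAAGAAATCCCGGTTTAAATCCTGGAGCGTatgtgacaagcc
Vegfa-202 downstream alternative exon (capitals): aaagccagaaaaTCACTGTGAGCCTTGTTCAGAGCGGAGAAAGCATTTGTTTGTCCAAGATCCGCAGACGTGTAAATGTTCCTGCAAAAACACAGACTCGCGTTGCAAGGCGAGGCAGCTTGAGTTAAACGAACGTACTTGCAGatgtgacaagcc
Vegfa-201 junction (capitals, the last exon): aaagccagaaaaATGTGACAAGCC

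The minor Vegfa forms differed between libraries and quantifications. Vegfa-203, with the upstream exon alone, was at 0.07, 2.54 and 0 TPM, from 1.75, 19.1 and 0 expected counts, so in the alignment 1 library carried nearly all of it. Vegfa-207, with both exons, was at 0.5, 0 and 0.98 TPM. The read-based mean shares were 14.1% and 11.5%, against 4.89% and 2.71% from the alignment, and in both quantifications Vegfa-203 was at 0 in replicate 3 and Vegfa-207 at 0 in replicate 2. The annotated coding start of Vegfa-202 and Vegfa-207 is the triplet CTG, which gives 368 and 392 codons, and that of Vegfa-201 is ATG.

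Transcripts of Vegfa annotated as not protein-coding held 12.2%, 6.05% and 2.68% of its TPM, highest in replicate 1. Over all 10 members, retained-intron transcripts held 5.14%, 1.85% and 1.17% of TPM. Over all nuclear protein-coding genes they held 4.48%, 4.09% and 3.19%. Both are highest in replicate 1, as Malat1 and Neat1 are, and the part of nuclear RNA in these shares was not tested.

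In the list of VEGF ligands and receptors, 5 of 10 genes were expressed. Nrp2 (123 ± 26.6 TPM) and Nrp1 (72.8 ± 13.6), the neuropilin co-receptors, stood above Vegfa, and Vegfb was at 16.1 ± 1.81. The receptor Kdr was at 4.24, 3.88 and 9.53 TPM, high in replicate 3, and Flt1 at 0.120 ± 0.0458 TPM. Kdr is also an endothelial marker. The summed level of the 6 endothelial markers, Kdr included, was 9.11, 7.83 and 13.6 TPM. Almost all of the rise in replicate 3 was in Kdr itself. Vwf was at 4.57, 3.67 and 3.71 TPM (3.98 ± 0.508) and Cdh5 at 0.3, 0.28 and 0.35 TPM (0.310 ± 0.0361). Tek was at 0 TPM in each library, and Emcn and Cldn5 had no counts. The part of endothelial RNA in the Kdr level was not tested.

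Bnip3 (ENSMUSG00000078566.8, chromosome 7, 138890836 to 138909519, minus strand), a mitophagy receptor of the outer mitochondrial membrane, was at 5.71, 8.32 and 5.12 TPM (6.38 ± 1.70, SD, n = 3). It had 769, 340 and 504 expected counts, and 16.0, 17.4 and 12.4 protein-coding CPM. Replicate 2 was highest and replicate 3 lowest on both scales. Its paralog Bnip3l, also a mitophagy receptor, was at 22.78, 48.34 and 22.07 TPM, above Bnip3 in 3 of 3 libraries. Bnip3l had 3669, 1295 and 2366 expected counts. Set against the library totals of 55517261, 21311556 and 45635014, these do not place replicate 2 highest, unlike the TPM of Bnip3l. The reason was not tested. The log2 ratio of Bnip3 to Bnip3l was -2.20 ± 0.29, so Bnip3l was 4.58-fold higher in TPM. Without replicate 2 this log2 ratio was -2.03. The overlapping opposite-strand genes Gm45507 and Gm18258 had at most 1 count in any library. The mitophagy list had 9 of 10 genes expressed, led by Fkbp8 (72.9 ± 20.0 TPM) and the prohibitin Phb2 (34.1 ± 2.08), with Fundc1 at 12.2 ± 2.50. Calcoco2 had no counts.

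Ddit4 (ENSMUSG00000020108.4, chromosome 10, 59949669 to 59951834, minus strand), whose product REDD1 restrains mTORC1 through the TSC complex, was at 0.66, 1.03 and 0.73 TPM (0.807 ± 0.197, SD, n = 3). It had 91, 42 and 74 counts, and 1.90, 2.15 and 1.82 protein-coding CPM. The Poisson intervals, 1.53 to 2.33, 1.55 to 2.90 and 1.43 to 2.29, overlap, so no difference between libraries was detectable at this depth. Of the Ddit4 and mTORC1 list, 8 of 10 genes were expressed, with Rheb at 26.2 ± 5.25, Akt1s1 at 18.3 ± 3.97, Rptor at 9.26 ± 2.64 and Tsc2 at 9.25 ± 2.45 TPM.

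In the list of canonical HIF targets, 23 of 32 genes were expressed, and the median of the 32 mean levels was 3.27 TPM. The 4 highest were Ldha (131 ± 21.9 TPM), lactate dehydrogenase, Hmox1 (128 ± 32.5), heme oxygenase, Pgk1 (69.8 ± 10.3), a glycolytic kinase, and Tfrc (68.1 ± 31.2), the transferrin receptor. Each of these also has regulators other than HIF. Epo, the erythropoietin gene, had no counts. Over all lists, 57 of 76 other pathway genes were expressed, with a median of 6.14 TPM, beside the 42.1% of all nuclear protein-coding genes.

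**Figure D3:**
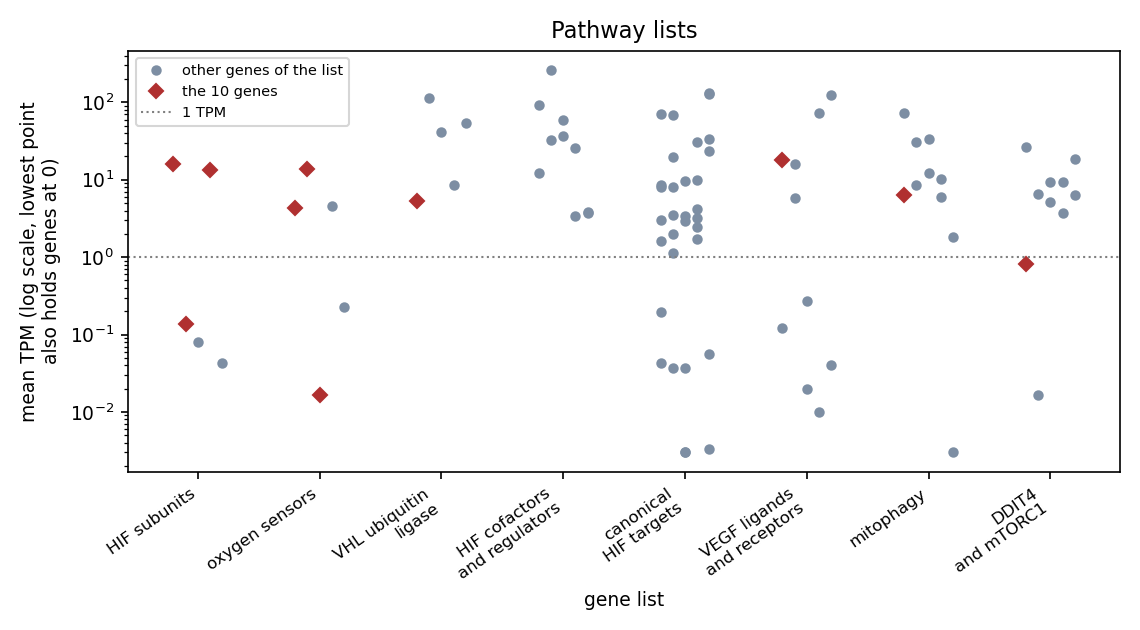
Mean TPM over the 3 libraries, on a log axis, of every gene in the 8 pathway lists, with the 10 members as red diamonds and other genes as grey points. The VHL ligase and the cofactors lie wholly above the dotted line of 1 TPM, and the subunit and sensor lists are split by it.

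In order of mean TPM the genes ran Vegfa, Hif1a, Egln2, Arnt, Bnip3, Vhl, Egln1, Ddit4, Epas1 and Egln3. The ranges of neighbours overlapped from Vegfa through Arnt and from Bnip3 through Egln1. Within those runs Vegfa was above Hif1a, Hif1a above Egln2 and Vhl above Egln1 in 3 of 3 libraries, Bnip3 was above Vhl in 2 and Egln2 above Arnt in 1. The ranges did not overlap between Arnt and Bnip3, Egln1 and Ddit4, Ddit4 and Epas1, or Epas1 and Egln3.

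The 7 expressed members did not share a pattern across libraries. In protein-coding CPM, Hif1a and Egln1 were highest in replicate 1, Arnt and Bnip3 in replicate 2, and Egln2, Vhl and Vegfa in replicate 3. Of all 9275 expressed genes, 47.5% were highest in replicate 1, 30.1% in replicate 2 and 22.4% in replicate 3. Hif1a differed between replicates 1 and 3 by less than 0.1 protein-coding CPM, so its place rests on a near tie. The largest departures were in 2 targets. Against the mean of the other libraries, Vegfa was at -0.47 in replicate 2 and 0.40 in replicate 3 on the log2 scale, and Bnip3 at -0.42 in replicate 3. Egln1 followed at 0.31 in replicate 1.

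**Figure D4:**
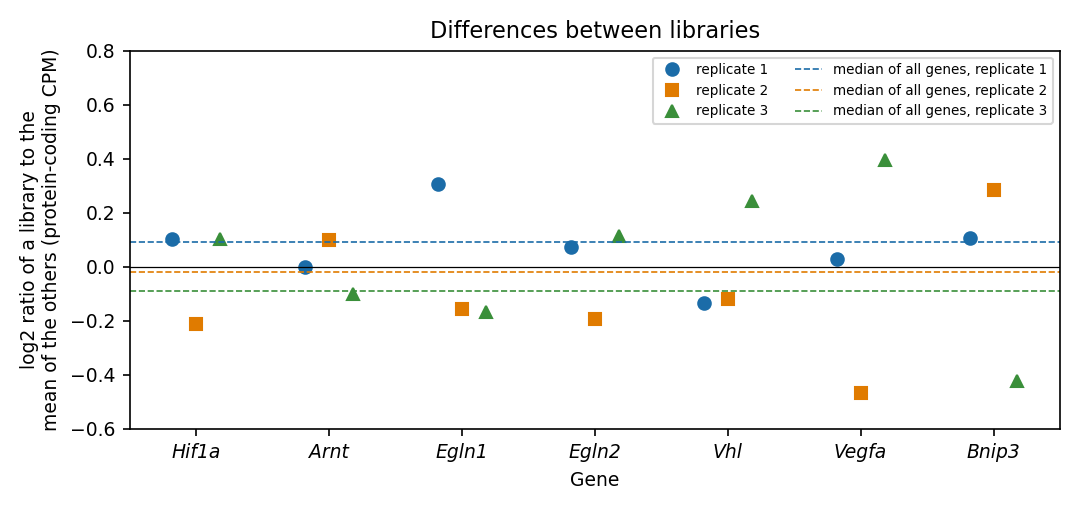
For the 7 expressed genes, protein-coding CPM of a library over the mean of the other libraries, as a log2 ratio (dashed lines, the median over all 9275 such genes for each replicate). Vegfa and Bnip3 depart in opposite directions, Vegfa low in replicate 2 and Bnip3 low in replicate 3.

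The spread between libraries beyond counting noise was estimated as the biological coefficient of variation by edgeR over 12361 genes, of which 9 of the 10 members passed the expression filter (Egln3 did not). It was 0.122 for Arnt, 0.131 for Hif1a, 0.136 for Egln2, 0.146 for Egln1, 0.163 for Vhl, 0.170 for Vegfa, 0.178 for Bnip3, 0.333 for Ddit4 and 0.481 for Epas1, beside a median of 0.175 over all genes tested. These values are drawn toward the trend of genes at a like level. Over genes of all abundances Arnt was at percentile 1.77 (19.1 without shrinkage) and Epas1 at percentile 97.0. Among the 500 genes nearest in abundance, Vegfa was at percentile 89.4, Epas1 at 82.6, Vhl at 70.0, Bnip3 at 58.4, Egln2 at 46.2, Hif1a at 44.2, Egln1 at 30.8, Arnt at 20.4 and Ddit4 at 6.20. The place of Epas1 rests on replicate 2, where it had 7 counts: without that library it was at percentile 25.2 and below the trend (0.392 against 0.444). Vegfa was at percentile 74.0 without replicate 3, with a coefficient of 0.137 against a trend of 0.140. Other places moved as well: without replicate 1 and without replicate 3, Hif1a was at 67.4 and 28.4 and Egln2 at 66.6 and 26.4. Vhl was at 85.6 without replicate 2 and at 26.4 without replicate 3.

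**Figure D5:**
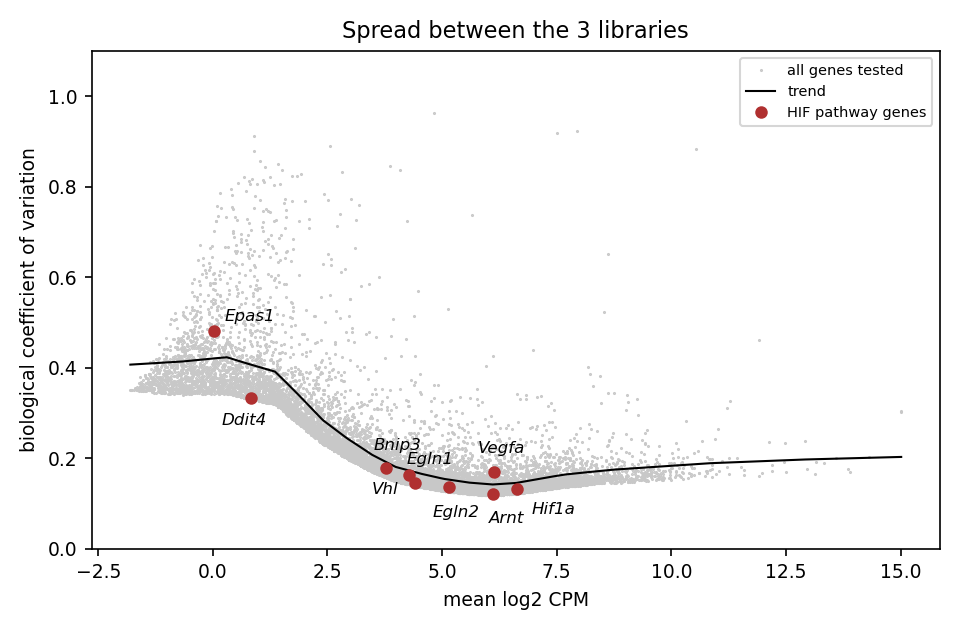
Biological coefficient of variation against mean log2 CPM for all 12361 genes tested (grey), the fitted trend (black line) and the 9 members that passed the filter (red). Vegfa and Epas1 lie above the trend and the other 7 below it with all 3 libraries, but Epas1 falls below it without replicate 2 and Vegfa without replicate 3.

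The 3 genes nearest to Hif1a across the 3 libraries, by the root mean square distance of centred log2 protein-coding CPM, were Suclg1, Psma4 and Brox, at 0.0019, 0.0019 and 0.0027. With 3 libraries this measure separates little, since 1527 of 6642 candidate genes, or 23.0%, lay within 0.1.

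Promoter windows (250 bases before to 50 after the start, RefSeq, GRCm38.p6) were read for 9 of the 10 members and searched on both strands for ACGTG and GCGTG, the core letters of the hypoxia response element. A palindromic CACGTG counts once on each strand. Of all 32851 promoters in the table, 14380, or 43.8%, held a match, and 19.6% held ACGTG. The 9 members had 11 windows, of which 9 (81.8%) held a match and 7 (63.6%) held ACGTG. Counted by gene, 8 of 9 had a match in some window, and Vhl had none. For Vegfa the window nearest the start of Vegfa-202 held none. The match was in the second window only, at 46025114 to 46025413, within the gene and downstream of the first exon of Vegfa-202. Bases more than 250 upstream of a start were not searched, for Vegfa or any other gene. An ACGTG match is shown for 2 sensors, 2 targets and 1 subunit, as 25 bases 5′ to 3′ on the gene's strand, with the match in capitals.
Egln1 (68 bases upstream): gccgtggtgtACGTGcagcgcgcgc
Egln3 (229 bases upstream): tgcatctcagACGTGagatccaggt
Bnip3 (107 bases upstream): cacgcgccgcACGTGccacacgctc
Ddit4 (187 bases upstream): aacgttgcgaACGTGcgcccggtgc
Hif1a (70 bases upstream): gctgagagcaACGTGggctggggtg
They lie at chr8:124949308-124949332, chr12:54204089-54204113, chr7:138909599-138909623, chr10:59951943-59951967 and chr12:73907787-73907811. The distances are from the RefSeq starts. For Egln1 the annotation used for the levels starts further upstream, at 124949324 on the minus strand. The Egln1 match therefore lies within the first exon of that annotation (124948233 to 124949324), not before it. The Hif1a match lies before the first exon of Hif1a-201 but downstream of that of Hif1a-202, which starts at 73901375. No window covered the start of Hif1a-202. Of the genes shown, Bnip3 was at 6.38 TPM and Egln3 at 0.0167 TPM, and a relation between matches and levels was not tested. A match describes letters, and no binding was measured.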

How the data were processed

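Total RNA-seq of 3 libraries of 1 group was used as deposited. Per the file headers, the authors' gene tables hold an expected count, TPM with its credibility bounds, and FPKM for each gene. These and a matching transcript table came from reads aligned to the transcriptome, and a second transcript table, with an estimated count and TPM, from the reads directly. The deposited description files give mouse build mm10 and GENCODE M21. The programs used for this are not given in the sources used. Members were matched by symbol. The members and the pathway lists were chosen with earlier results of these data known.

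Levels are TPM of the gene tables. Counts were divided by the counts of nuclear protein-coding genes for protein-coding CPM. Ratios within families used a pseudocount of 0.1 and the exact two-sided sign-flip test over libraries. The spread was fitted with edgeR 4.0.16 (R 4.3.3), TMM and filterByExpr on whole-number roundings of the expected counts, the model holding only an intercept. DESeq2 1.42.0 gave alternative size factors. On simulated counts for the same 12361 genes, genes made with a coefficient of 0.2 were estimated at a median of 0.216, and 200 genes made with 0.8 at 0.325 with shrinkage and 0.725 without. Figures and tables used Python 3.11.15, pandas 2.3.3 and scipy 1.17.1.

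Named were all 10 members, the 4 highest genes of each list and those without counts, the 3 genes nearest to Hif1a, and transcripts with a mean share of at least 10% in either quantification. Other genes named (Hif3a, Arnt2, Hif1an, P4htm, the markers and genes overlapping a member) were added after their values were seen. Alternatives were the read-based tables, other limits, pseudocounts and scales, FPKM, and leaving out each library.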

Additional observations from a re-analysis of the deposited data

How the results depend on the processing

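The count of members expressed was 7 and stayed between 5 and 8: 6 in the read-based tables (Egln1 drops out), 8 at 0.5 TPM and 5 at 5 TPM, 7 without any 1 library, and 8 when TPM of either quantification was rescaled to nuclear protein-coding genes (Ddit4 comes in), a scale chosen after seeing the data. The 5 family ratios kept their sign under all 35 alternatives run, but only the read-based tables could have changed it. In the main values each ratio had the same sign in every library. Another pseudocount, FPKM or leaving out a library therefore could not reverse it. Sizes depended on the pseudocount where one gene is near 0: Hif1a to Epas1 ranged from 3.91 to 6.36 and Egln1 to Egln3 from 2.40 to 6.43 on the log2 scale, while Hif1a to Arnt stayed between 0.21 and 0.34.

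Absolute levels depend on the scale. In 29 of 30 rescaled or read-based values the mean level moved by more than its SD (Hif1a from 16.1 to 7.54 TPM in the read-based table and to 46.4 rescaled). On leaving out a library none of 30 did. With 3 libraries a mean cannot move that far when 1 is left out, so this says nothing about stability. Shares of the leading transcript moved by more than their SD in the read-based table for 5 of the 7 genes with several transcripts. Coefficients of variation, which are drawn toward the trend and so held in place, stayed within 1.5 times under 45 alternatives (size factors, filter, leaving out a library). The side of the trend was less stable: Epas1 fell below it without replicate 2 and without the filter (0.675 against 0.700), Vegfa without replicate 3, while Bnip3 rose above it without replicate 1 (0.190 against 0.188) and Vhl without replicate 2 (0.177 against 0.174). Without shrinkage, added after seeing the data, 4 of 9 fell further, Ddit4 to 0.0099, Arnt to 0.0485, Egln1 to 0.0724 and Egln2 to 0.0855.

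No paired analysis was possible because there is 1 group. Depth limits Egln3 and Epas1, whose counts in the shallowest library were 1 and 7. With 3 libraries the smallest exact p is 0.25.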
